A study of Mus musculus with 15 samples.

Results

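The genes described here are 32 markers of macrophages and other blood cells, measured in cultures of mouse embryonic fibroblasts. They were chosen by name from a list of 33 symbols, matched to current or older gene names on the array (Emr1, for example, is now Adgre1). Of the 33, 32 were found, with 53 probes, and all 32 were among the 18710 genes that could be tested; Ctss1 matched no name on the array. RNA came from fibroblasts of C57B6 embryos at 13.5 days, at passage 3, collected at high confluence after 24 h without serum. Each array held the culture's RNA in red against pooled fibroblast RNA in green. Levels are given below as log2 of red over green, on which 0 means the level of the pool. Double knock-out cells, which lack both p27 and stathmin, were on 3 arrays. Cells with only p27 knocked out, cells with only stathmin knocked out and wild type cells had 4 arrays each. Within a genotype, arrays are labelled as biological replicates. How many embryos gave a culture, and which knock-out alleles were used, is not given in the sources used here.

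Macrophages are phagocytes of the innate immune system. They depend on signalling through the receptor Csf1r, carry Fc and lectin receptors that bind coated or microbial particles, and signal from many of these through small adaptors with ITAM motifs such as Tyrobp and Fcer1g. In the embryo they arise from the yolk sac and fetal liver and settle in most tissues, so a culture made from a whole embryo can hold some of them beside the fibroblasts. p27 is an inhibitor of cyclin-dependent kinases encoded by Cdkn1b, and stathmin, encoded by Stmn1, is a protein that destabilises microtubules.

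Across the 15 arrays the red signal of 59.3 to 78.9% of spots was clear of the background. The labels were checked on the targeted genes: a Stmn1 probe read between -2.82 and -2.68 in double knock-out and between -2.98 and -2.64 in stathmin knock-out, against 0.64 to 0.87 in wild type. The brighter Stmn1 probe did not separate the genotypes, at -0.41 to -0.03 in double knock-out and -0.85 to -0.06 in stathmin knock-out, against -0.49 to 0.33 in wild type. The tested Cdkn1b probe read between -1.36 and 0.19 in double knock-out and between -1.10 and 0.05 in p27 knock-out, against -0.22 to 0.93 in wild type, so these groups overlapped. A dim Cdkn1b probe that missed the detection filter did separate double and p27 knock-out from wild type. It read -0.18 to -0.08 in double knock-out and -0.20 to -0.10 in p27 knock-out, against 0.22 to 0.36 in wild type. In stathmin knock-out, which carries p27, it read -0.13 to 0.53 and so overlapped both. It was well above background on only 2 wild type arrays and 1 stathmin knock-out array. Another dim probe overlapped, at -0.28 to 0.03 in double knock-out, -0.33 to 0.36 in p27 knock-out and -0.13 to -0.01 in wild type. Where the probes lie relative to the deleted part is not known. Fibroblast markers were present throughout, with 11 of 11 well above background on all 15 arrays. Wild type 3 and 4 stood closest of all pairs of arrays (r = 0.84 across genes), and p27 knock-out 2 stood farthest from the others, with a mean r of -0.13 against 0.063 to 0.29 for the other arrays. Each genotype kept 1 position on the slides, so genotype and slide position cannot be told apart.

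The macrophage and blood cell genes were easily detected in these fibroblast cultures. Of the 32, 27 were well above background on all 15 arrays, a state that 81.8% of all tested genes shared, and the dimmest, Laptm5, was so on 12. Emr1, the adhesion receptor used as the classical surface marker of mouse macrophages, had sample signals from 402 to 180587 intensity units. Lyz2, the lysozyme of myeloid cells, was the brightest, with 33627 to 631884 units, and 1 of its 15 spots was saturated. In bulk RNA, fewer cells of a type and less RNA per cell cannot be told apart.

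The cultures differed widely in these genes, and replicates of double and of p27 knock-out differed by more than the genotype means did. Replicates of stathmin knock-out and of wild type lay closer together. From the lowest to the highest array, single members ranged over 8.33-fold (Laptm5) to 726-fold (Emr1), with a median range of 28.4-fold. Emr1 read -5.09, -0.91 and 0.99 in double knock-out and -1.47, 4.06, -5.44 and -0.52 in p27 knock-out. It read -3.37, -1.40, -1.23 and -1.97 in stathmin knock-out and -3.73, -1.62, -2.48 and -2.39 in wild type. Both the highest and the lowest of its 15 values were therefore p27 knock-out cultures. Csf1r, the receptor of the macrophage growth factor Csf1, read -1.33, 0.16 and 1.70 in double knock-out and 0.22, 1.36, -2.58 and 0.22 in p27 knock-out. In stathmin knock-out Csf1r read -1.94, -0.90, -1.21 and -2.19, and in wild type -1.90, -0.44, -1.15 and -0.97.

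**Figure D1:**
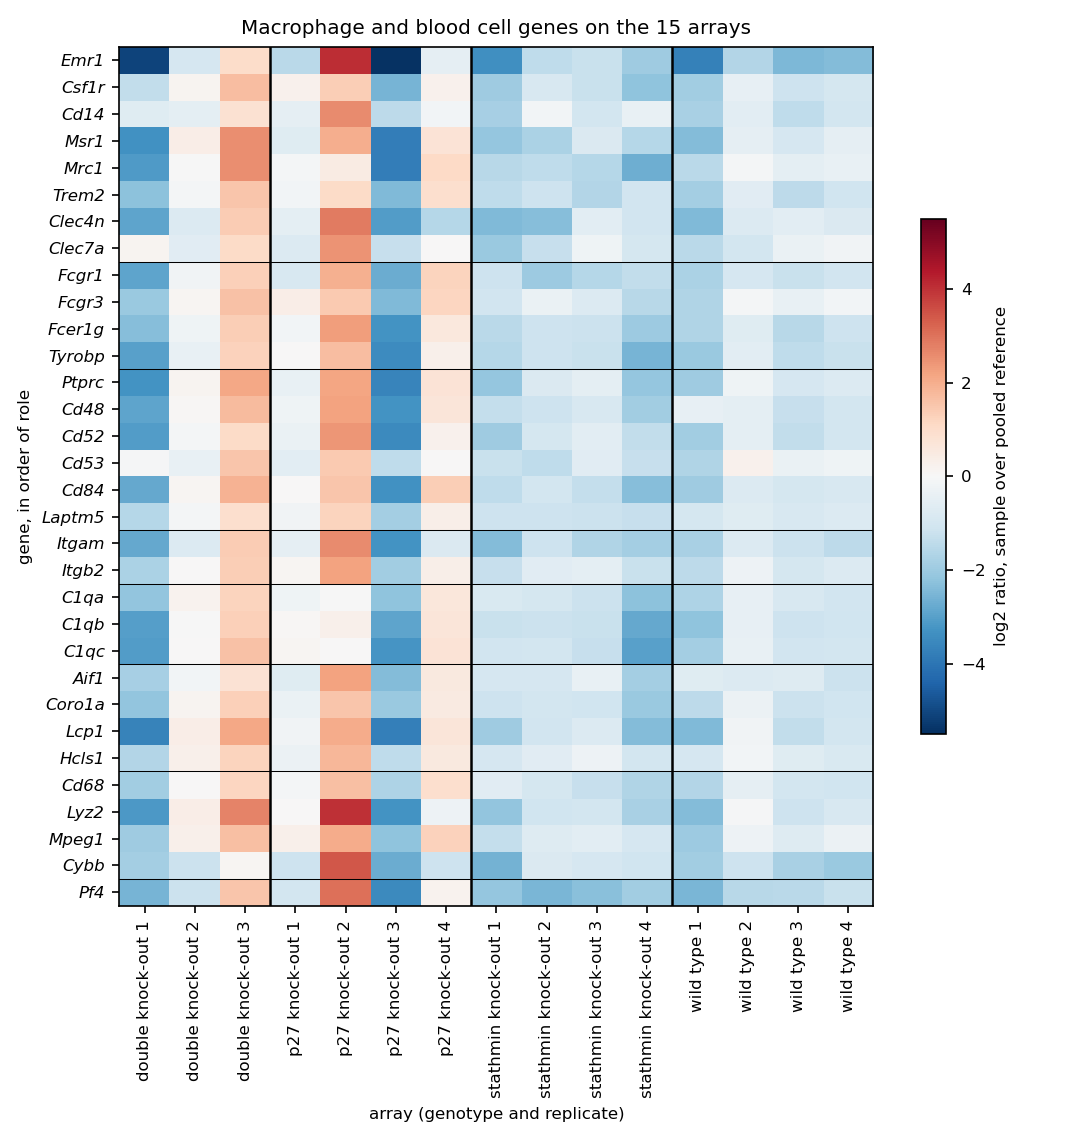
Log2 ratio of sample over pooled reference for the 32 genes (rows, grouped by role) on the 15 arrays (columns, grouped by genotype and numbered by replicate); red is above and blue below the reference. Nearly all rows are red on p27 knock-out 2 and double knock-out 3 and blue on p27 knock-out 3 and double knock-out 1, while stathmin knock-out and wild type arrays are pale blue.

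The same arrays were extreme for nearly every member. Of the 32 genes, 21 had their highest value on p27 knock-out 2 and 11 on double knock-out 3. The lowest value was on p27 knock-out 3 for 23 genes and on double knock-out 1 for 5, and the other 4 (Cd14, Clec7a, Cd53 and C1qa) had it on a stathmin knock-out or wild type array. On p27 knock-out 2, 31 of the 32 genes were above the reference, and on double knock-out 3 all 32 were. On p27 knock-out 3 none was, and on double knock-out 1 only Clec7a, a lectin receptor for fungal glucans, was, at 0.15. In stathmin knock-out 0 of 32 genes were above the reference on any of the 4 arrays, and in wild type only 1, Cd53 on wild type 2, was.

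As a summary of the level per culture, the mean log2 ratio over the 32 genes was -2.38, -0.16 and 1.47 in double knock-out. It was -0.32, 1.94, -2.79 and 0.38 in p27 knock-out, -1.61, -1.13, -1.02 and -1.73 in stathmin knock-out, and -1.81, -0.55, -1.08 and -0.96 in wild type. The group means were -0.36 ± 1.93 (SD, n = 3) for the cells without both proteins. With n = 4 each, they were -0.20 ± 1.97 for p27 knock-out, -1.37 ± 0.35 for stathmin knock-out and -1.10 ± 0.52 for wild type. Both genotypes without p27 thus held cultures above and below every stathmin knock-out and wild type culture.

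**Figure D2:**
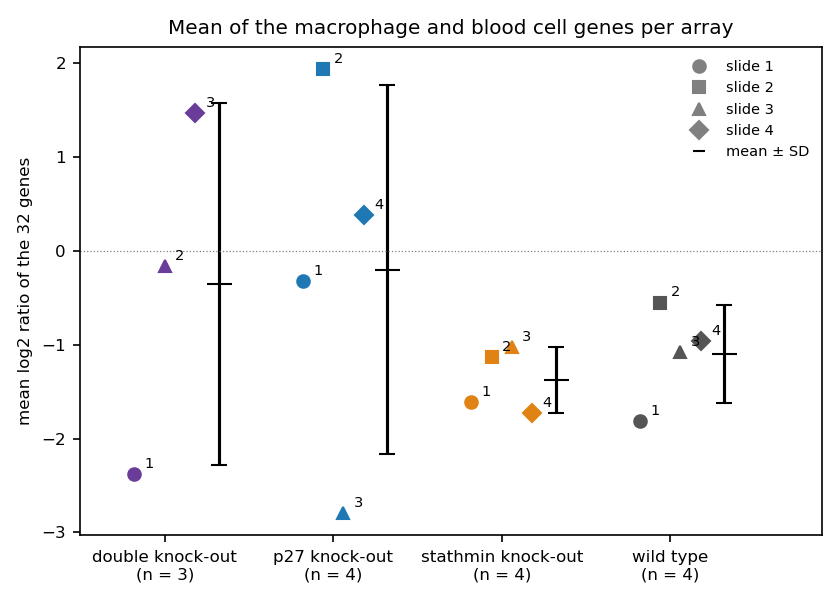
Mean log2 ratio of the 32 genes on each array (vertical axis), by genotype; numbers are replicates, symbols are slides, and bars show the group mean ± SD. The double knock-out points span -2.38 to 1.47 and the p27 knock-out points -2.79 to 1.94, while the stathmin knock-out and wild type points stay between -1.81 and -0.55.

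The spread between replicates was described gene by gene. The median SD of the members was 1.99 in double knock-out, 2.03 in p27 knock-out, 0.56 in stathmin knock-out and 0.57 in wild type. The median SD over all tested genes was 0.21, 0.35, 0.32 and 0.23 in the same groups. All 32 members had an SD in double knock-out and in p27 knock-out that were both above their SD in stathmin knock-out and in wild type; 15.7% of all genes with a value on every array had this order. The members share their cultures and move together, so the 32 are not separate observations of this order, and it rests on 3 or 4 arrays per genotype; no test of it was made. In the fit over all genotypes, the residual SD of the members had a median of 1.47 (range 0.86 to 2.53) against 0.32 for all genes. Of the 32, 14 exceeded the 99th percentile of all genes, a level that by construction 1% of genes exceed.

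**Figure D3:**
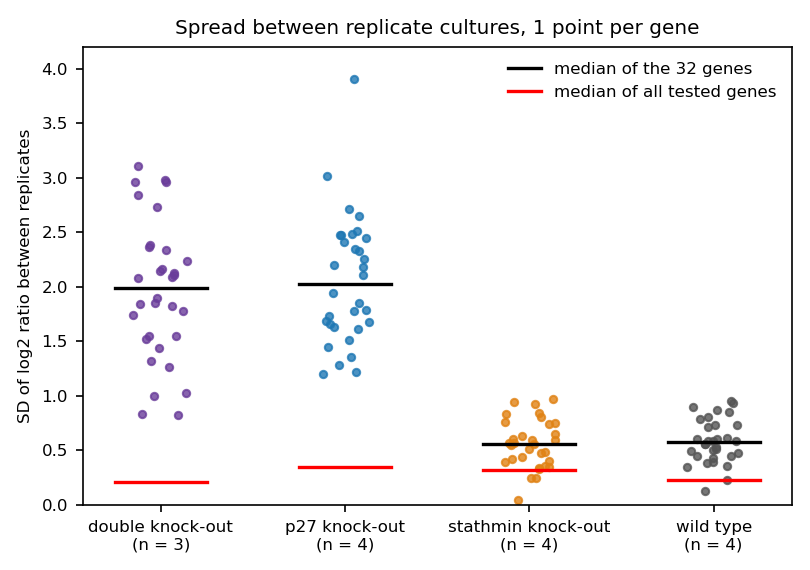
SD of the log2 ratio between replicates (vertical axis) for each of the 32 genes (points), by genotype, with the median of these genes (black line) and of all tested genes (red line). The black lines stand at 1.99 in double knock-out and 2.03 in p27 knock-out, against 0.56 in stathmin knock-out and 0.57 in wild type.

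Loss of p27 alone was the question of the first comparison. All 32 had a mean log2 difference above 0 in p27 knock-out against wild type, with a median of 0.91 (all genes 0.015), and 0 of 32 passed an adjusted p under 0.05 in limma, where 0% of all 18681 genes did. At an unadjusted p under 0.05, 0 of 32 members passed, against 5.72% of all genes. Without p27 knock-out 3, the array with the lowest mean of these genes, 19 of 32 passed unadjusted and 0 adjusted. The share of all genes in that setting was not counted, and leaving out the lowest array raises the difference by itself. The members with the smallest p were Cd14, the co-receptor for bacterial lipopolysaccharide, Cd68, a lysosomal membrane glycoprotein of macrophages, and Itgb2, the beta chain of leukocyte integrins. Cd14 differed by 1.31 (SE 0.70, 95% interval -0.20 to 2.81, adjusted p = 0.796) and Cd68 by 1.23 (SE 0.69, adjusted p = 0.796). Itgb2 differed by 1.06 (SE 0.74, adjusted p = 0.80). Emr1 had the largest difference, 1.71, with an interval of -1.79 to 5.22, and the mannose receptor Mrc1 the smallest, 0.05, with an interval of -2.35 to 2.45. Cd14 averaged 0.12 ± 1.73 in p27 knock-out and -1.18 ± 0.51 in wild type (SD, n = 4 each), with 3 of the 4 p27 knock-out arrays above every wild type array. No member had p27 knock-out and wild type arrays that did not overlap, a separation that 2.23% of all genes showed.

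The size of this difference rested on single cultures. Without p27 knock-out 2 the median difference was 0.25, and without p27 knock-out 3 it was 1.76. Within slides, the mean over the members differed by 1.49, 2.49, -1.71 and 1.34 between p27 knock-out and wild type. On slide 3 all 32 members were lower in p27 knock-out, and on the other 3 slides at least 31 of 32 were higher.

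The second comparison asked what loss of stathmin alone does. Here 3 of 32 members (Emr1, Cybb and Cd14) had a difference above 0, the median was -0.33 (all genes 0.011), and 0 passed over all genes, where 0.00535% of genes did. At an unadjusted p under 0.05, 0 of 32 passed, against 4.77% of all genes. The tetraspanin Cd53 differed by -0.62 (SE 0.58, adjusted p = 0.912) and Mrc1 by -1.16 (SE 1.11, adjusted p = 0.915). Laptm5, a lysosomal membrane protein of leukocytes, was the 1 member whose groups did not overlap, which 2.98% of all genes showed. It read -1.16, -1.14, -1.18 and -1.25 in stathmin knock-out, against -0.95, -0.68, -0.90 and -0.77 in wild type, a difference of -0.36 (SE 0.56, adjusted p = 0.951 in limma). That SE comes from a residual SD shared by all genotypes. The SD of Laptm5 was 1.26 in double and 1.29 in p27 knock-out, against 0.05 in stathmin knock-out and 0.12 in wild type. Laptm5 lies on chromosome 4, as does Stmn1, and so do Cd52 and the 3 C1q genes. Within slides the member mean differed by 0.20, -0.58, 0.06 and -0.77 between stathmin knock-out and wild type. Without stathmin knock-out 4 the median difference was -0.09, and without wild type 1 it was -0.54.

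The third comparison asked what the cells without both proteins show. All 32 members had a difference above 0 in double knock-out against wild type, with a median of 0.75 (all genes -0.0034). Of these, 0 passed over all genes, where 0% did, and 0 passed unadjusted, against 2.33% of genes. The unadjusted count was 5 without double knock-out 1, the double knock-out array lowest in these genes, and 7 with array weights. The share of all genes in those settings was not counted, and leaving out double knock-out 1 raises the difference by itself. Csf1r differed by 1.29 (SE 0.82, 95% interval -0.48 to 3.07, adjusted p = 1), Cd14 by 1.07 (SE 0.75, adjusted p = 1) and Cd53 by 0.85 (SE 0.63, adjusted p = 1). Clec4n, the C-type lectin also called dectin-2, had the smallest difference, 0.39. No member separated the groups without overlap, against 6.35% of all genes. The sign hung on double knock-out 3: without that array the median was -0.19, and without double knock-out 1 the median was 1.75. Within slides the double knock-out mean differed from wild type by -0.57, 0.92 and 2.43.

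**Figure D4:**
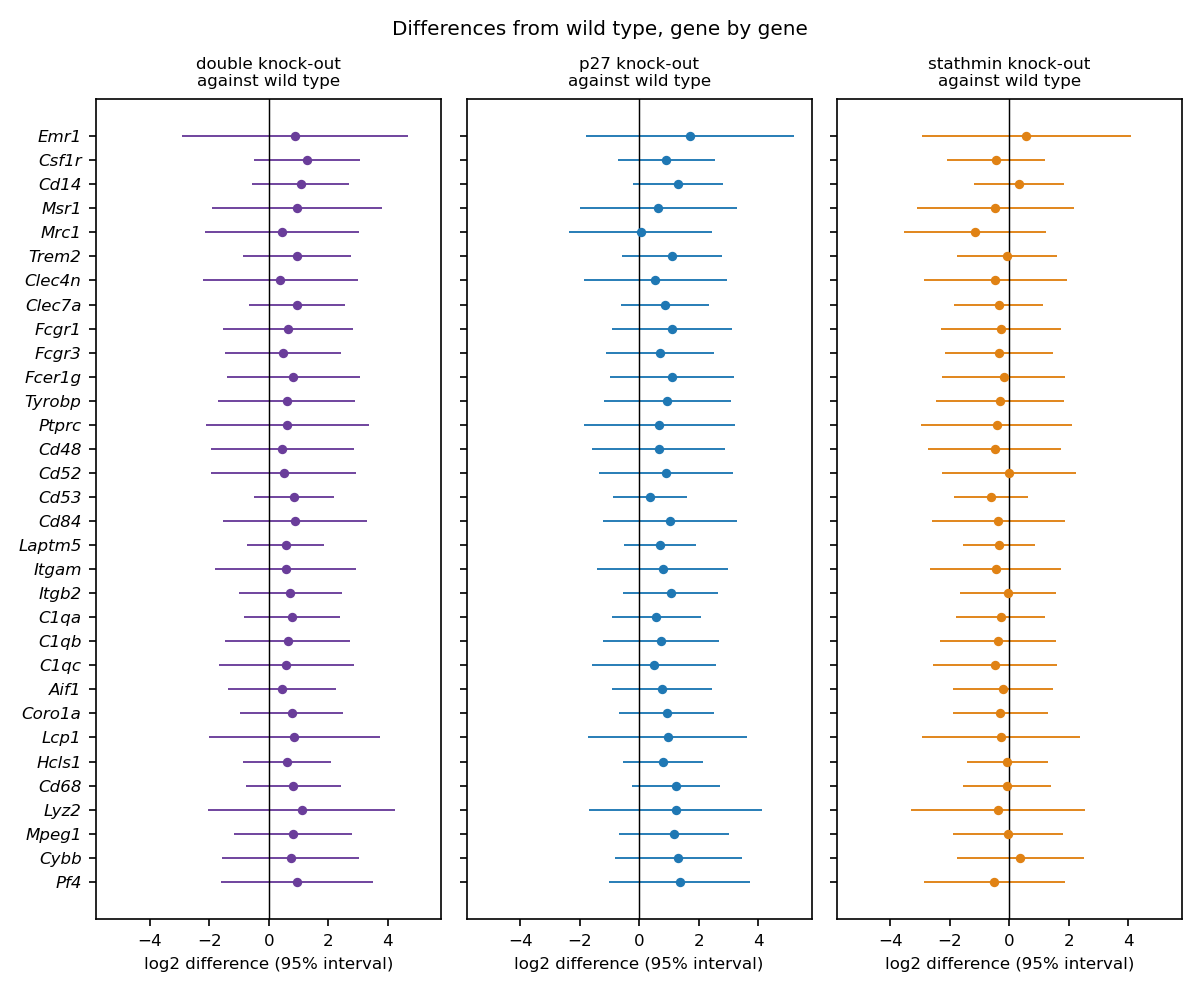
Log2 difference of each of the 32 genes (rows) from wild type, with its 95% interval from limma (horizontal axis), with 1 panel per knock-out genotype (double, p27, stathmin). All points of the left and middle panels lie right of 0 and 29 of 32 in the right panel lie left of it, and every one of the intervals holds 0.

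The double knock-out was also set against each single knock-out. Against p27 knock-out, 7 of 32 members were above 0 with a median of -0.17, and 0 passed over all genes (0% of genes did) or unadjusted (3% of genes). Cd53 differed by 0.48, Cd68 by -0.41 and Cybb by -0.58 (adjusted p = 1 in limma for each). Within slides the member mean differed by -2.05, 2.63 and 1.09. Without double knock-out 3 the median was -1.10, and without double knock-out 1 it was 0.81. No member separated these groups (3.14% of genes did). Against stathmin knock-out all 32 were above 0 with a median of 1.02, and 0 passed over all genes (0% of genes). Without double knock-out 3 that median was 0.07, and without double knock-out 1 it was 2.03. Unadjusted, 1 of 32 members passed, against 3.89% of genes: Cd53 differed by 1.47 (SE 0.63, 95% interval 0.12 to 2.82, adjusted p = 1 in limma). It read -0.08, -0.40 and 1.52 in double knock-out, against -1.22, -1.41, -0.61 and -1.25 in stathmin knock-out, and was the 1 member without overlap here, which 5.34% of genes showed. The count that passed unadjusted was 14 of 32 without double knock-out 1, 0 without double knock-out 3, stathmin knock-out 1 or stathmin knock-out 4, and 11 with array weights. In those settings the share of all genes was not counted. Double knock-out 1 was the double knock-out array lowest in these genes, so leaving it out raises the difference by itself. Csf1r differed by 1.74 (SE 0.82, adjusted p = 1) and Clec7a by 1.32 (SE 0.74, adjusted p = 1). These comparisons share the double knock-out arrays, and those with wild type share the wild type arrays.

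The interaction asks whether loss of stathmin differs in effect with and without p27. The members' median was 0.17 (-0.84 without double knock-out 3 and 1.10 without double knock-out 1), with 19 of 32 above 0, and 0 passed over all genes (0% of genes) or unadjusted (7.36% of genes). Mrc1 had an interaction of 1.55 (SE 1.64, adjusted p = 0.82), Cd53 one of 1.10 (SE 0.85, adjusted p = 0.742) and Emr1 one of -1.39 (SE 2.39, adjusted p = 0.902). The differences of the members were less precise than those of most genes. Their median SE was 0.95 for p27 knock-out or stathmin knock-out against wild type, against 0.22 for all genes. The median 95% interval reached 2.05 to either side. All genotypes share 1 residual SD in the fit. The SE of stathmin knock-out against wild type therefore also carries the spread of the other genotypes. The members' median SD was 1.99 in double and 2.03 in p27 knock-out, against 0.56 in stathmin knock-out and 0.57 in wild type.

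Among receptors at the macrophage surface, Emr1 had the longest range. Msr1, a scavenger receptor, spanned 82.4-fold and Mrc1 81.6-fold, while Trem2, a lipid-sensing receptor of macrophages, spanned 15.5-fold. Among Fc receptors and ITAM adaptors, Fcer1g read -2.36, -0.24 and 1.34 in double knock-out and -0.14, 2.29, -3.31 and 0.59 in p27 knock-out. In stathmin knock-out Fcer1g read -1.47, -1.13, -1.17 and -1.98, against -1.67, -0.67, -1.51 and -1.14 in wild type. Its culture-to-culture pattern was the closest of all members to the mean of the others (r = 0.99 over 15 arrays, a description, since all values share the arrays and the reference). Tyrobp, with which Trem2 signals, spanned 35.5-fold, and the Fc receptors Fcgr1 and Fcgr3 spanned 28.2-fold and 16.7-fold.

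Among membrane proteins shared by leukocytes, 5 of 6 had r of 0.96 to 0.98 with the other members. Cd53 had r = 0.82, with its lowest value on wild type 1 (-1.65) and -0.08 on double knock-out 1. Ptprc, the leukocyte common antigen, read -3.28, 0.14 and 2.12 in double knock-out and -0.41, 2.16, -3.64 and 0.76 in p27 knock-out. It read -2.11, -0.80, -0.55 and -2.12 in stathmin knock-out, against -1.94, -0.23, -0.92 and -0.77 in wild type. Cd48, Cd52, Cd84 and Laptm5 spanned 46.2-fold, 60.5-fold, 37.9-fold and 8.33-fold. Of the integrin chains, Itgam, the alpha chain of the complement receptor of myeloid cells, spanned 59.1-fold and Itgb2 17.5-fold. Regulators of actin and signalling found in blood cells (Aif1, Coro1a, Lcp1 and Hcls1) spanned 10.7-fold to 58.4-fold. Proteins of lysosomes and killing (Cd68, Lyz2, Mpeg1 and Cybb) spanned 11.7-fold to 163-fold. The long end is Lyz2, whose ratio is limited by 1 saturated spot and an uneven reference signal: it spanned 7.35 on the log2 scale on its brightest probe and 5.58 on its second.

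Pf4, the platelet chemokine, spanned 92.5-fold and followed the macrophage genes (r = 0.95 with the other members). It read -2.58, -1.18 and 1.52 in double knock-out and -1.03, 3.03, -3.51 and 0.20 in p27 knock-out, and between -2.52 and -1.24 in the other cultures. The platelet genes Itga2b and Gp1bb did not share this range: Itga2b, the platelet integrin chain, spanned 0.94 on the log2 scale and Gp1bb 0.95, against 6.53 for Pf4. Of the other tested platelet genes, Ppbp, a chemokine of platelets, spanned 3.95 (r = -0.36 with the members), and Treml1, a platelet receptor, spanned 0.85 with the highest r of the list, 0.74.

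The 2 cultures highest in these genes differed from each other in which members were high. On p27 knock-out 2 and double knock-out 3, 14 of 32 members differed by more than 1 on the log2 scale, 10 higher on the first and 4 on the second. For wild type 3 and 4, the closest pair of all arrays, no member differed by more than 0.47. Over all genes, the differences between p27 knock-out 2 and double knock-out 3 had an SD of 1.03. Between wild type 3 and 4 that SD was 0.27. The share of all genes that differed by more than 1 was not counted. Cybb, the catalytic subunit of the phagocyte NADPH oxidase, read 3.42 on p27 knock-out 2 and 0.11 on double knock-out 3, and Emr1 read 4.06 and 0.99 on the same arrays. Cd14, Clec4n, Clec7a, Pf4, Aif1, Cd52, Lyz2 and Itgam were also over 1 higher on p27 knock-out 2. The complement chains ran the other way: C1qa read -0.04 on p27 knock-out 2 and 1.21 on double knock-out 3, C1qb 0.29 and 1.32, and C1qc 0.02 and 1.61. Mrc1 read 0.44 on p27 knock-out 2 and 2.56 on double knock-out 3. These are single cultures of different genotypes, so the contrast has no replicate and no test.

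**Figure D5:**
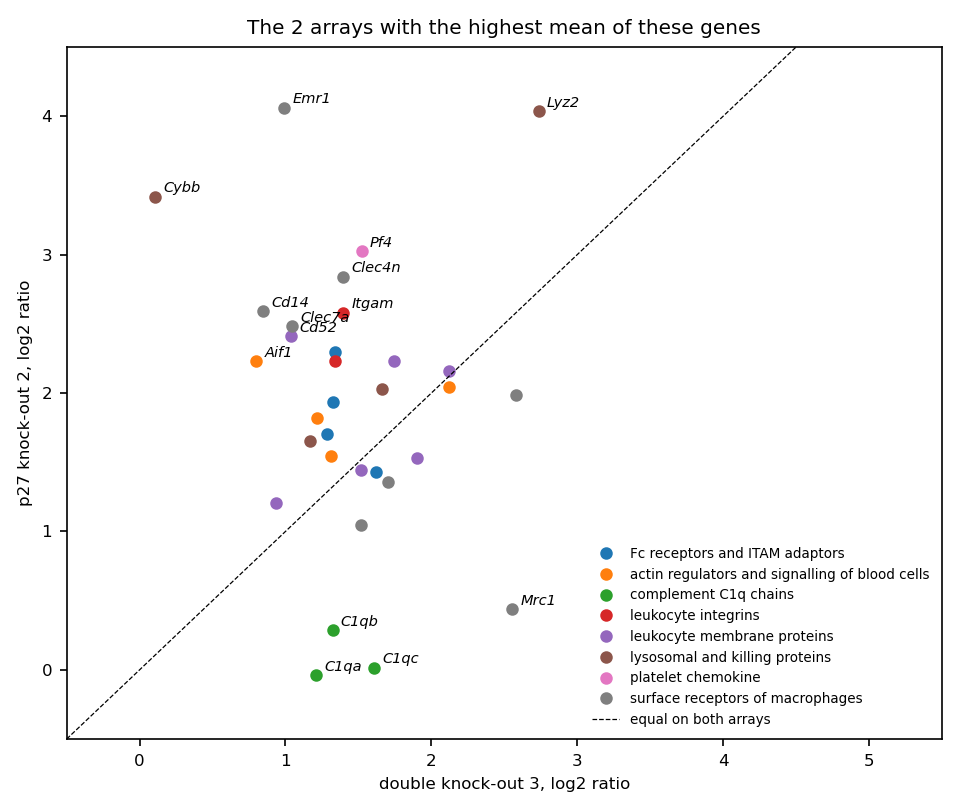
Log2 ratio of each of the 32 genes on p27 knock-out 2 (vertical axis) and on double knock-out 3 (horizontal axis), coloured by role; the dashed line marks equal values, and genes more than 1 apart are named. The 3 C1q chains and Mrc1 lie below the line, and Emr1 and Cybb lie farthest above it.

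Of the 14 genes, 5 had a second probe, none of them Mrc1 or a C1q chain, and on each it was higher on p27 knock-out 2. The difference there was 1.09 for Itgam and 1.54 for Aif1. The other Cybb probe read 2.39 on p27 knock-out 2 and -0.16 on double knock-out 3, and a dim Emr1 probe that missed the detection filter read 1.94 and 0.19. In the authors' deposited values, Cybb differed by 3.35 between the 2 arrays, Emr1 by 2.87, Mrc1 by -2.32 and C1qc by -1.74. Lyz2 was less certain. On its brightest probe the signal of the pooled reference was 16687 on p27 knock-out 2 and 45801 on double knock-out 3, against up to 182094 elsewhere, and its reference channel varied by an SD of 0.90 on the log2 scale, where the other members varied by 0.042 to 0.21. Its second probe read 2.25 on p27 knock-out 2 and 1.53 on double knock-out 3, in place of 4.04 and 2.73, and in the sample channel alone the brightest probe differed by 0.05 between the 2 arrays.

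Because the C1q chains, Mrc1, Pf4 and Cybb set these cultures apart, their promoter windows are shown, 5′ to 3′ on the strand of the gene. Each runs from 250 bases before to 50 after an annotated start (GRCm38.p6). For Cybb and C1qc that start is not the upstream end of the gene in RefSeq, at 9487766 and 136892936. The Cybb window lies inside the RefSeq gene. Mrc1 and Pf4 lie on the + strand and C1qc, C1qb and Cybb on the - strand. Capitals mark GAGGAA or its reverse complement TTCCTC, the core letters bound by the myeloid factor PU.1 and by related ETS factors.
Mrc1, chr2:14229164-14229463: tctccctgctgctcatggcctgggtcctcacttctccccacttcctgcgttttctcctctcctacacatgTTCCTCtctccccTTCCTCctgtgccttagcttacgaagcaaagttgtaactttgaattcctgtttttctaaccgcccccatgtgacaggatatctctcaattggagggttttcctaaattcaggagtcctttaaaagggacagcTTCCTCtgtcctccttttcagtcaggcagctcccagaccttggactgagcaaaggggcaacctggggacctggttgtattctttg
C1qc, chr4:136892865-136893164: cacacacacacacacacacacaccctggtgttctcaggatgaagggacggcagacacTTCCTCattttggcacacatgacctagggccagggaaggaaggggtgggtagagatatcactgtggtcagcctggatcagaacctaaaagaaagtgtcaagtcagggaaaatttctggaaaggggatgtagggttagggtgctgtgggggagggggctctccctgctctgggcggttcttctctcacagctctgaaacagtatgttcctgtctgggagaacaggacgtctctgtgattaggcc
C1qb, chr4:136886151-136886450: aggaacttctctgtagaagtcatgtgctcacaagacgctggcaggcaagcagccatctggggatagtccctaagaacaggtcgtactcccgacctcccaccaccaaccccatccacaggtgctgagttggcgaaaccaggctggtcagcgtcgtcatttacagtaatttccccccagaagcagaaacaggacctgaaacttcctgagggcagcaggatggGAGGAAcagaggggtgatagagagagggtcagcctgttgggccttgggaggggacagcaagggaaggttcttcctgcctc
Pf4, chr5:90772185-90772484: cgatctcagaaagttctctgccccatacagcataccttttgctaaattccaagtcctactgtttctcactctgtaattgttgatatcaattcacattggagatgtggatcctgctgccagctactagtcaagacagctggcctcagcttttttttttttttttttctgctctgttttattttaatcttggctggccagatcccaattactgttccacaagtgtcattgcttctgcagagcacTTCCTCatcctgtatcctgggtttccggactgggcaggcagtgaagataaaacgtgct
Cybb, chrX:9469275-9469574: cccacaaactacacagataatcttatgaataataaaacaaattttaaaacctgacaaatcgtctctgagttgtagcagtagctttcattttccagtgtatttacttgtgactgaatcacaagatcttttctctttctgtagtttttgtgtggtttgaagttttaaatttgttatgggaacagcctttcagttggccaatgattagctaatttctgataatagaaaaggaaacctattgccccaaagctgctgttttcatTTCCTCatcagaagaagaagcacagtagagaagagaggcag
These letters occurred 3 times in the Mrc1 window and once in each of the other 4. A window was at hand for 23 of the 32 members, 28 windows in all, since some genes have several starts. Of the 28, 18 held GAGGAA on either strand (64.3%), against 28.3% of the 32851 windows of all genes. TATAAA on either strand was in 4 of 28 (14.3%), against 13.6% of all windows. A match of letters is a description and does not show binding. Emr1 and C1qa had no entry in the table.

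Genes outside the list tracked it closely. Of the 17996 genes with a value on all arrays, 108 that are not members correlated above 0.9 with the members' mean over the 15 arrays, and 166 above 0.8. Among the 12 most alike, with r of 0.98 to 0.99, were Cd300c2 (listed as Cd300d in the files), Vav1, Myo1g, Lilrb4a, Myo1f, Ms4a6d, Fcgr2b, Pirb, Ncf1, Ncf4 and an unnamed probe. Cd300c2, Lilrb4a, Fcgr2b and Pirb are receptors of the immunoglobulin superfamily, and Ncf1 and Ncf4 are cytosolic subunits of the phagocyte NADPH oxidase. Cd300c2 read 1.63 on double knock-out 3 and 1.69 on p27 knock-out 2, against -2.15 on double knock-out 1 and -2.57 on p27 knock-out 3.

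In a list of 46 further macrophage genes, 37 were tested, 23 of these correlated above 0.9 with the members, and 0 were called in any comparison with wild type. The mean of the list ranged from -1.56 to 0.91 in double knock-out, -1.80 to 1.50 in p27 knock-out, -1.10 to -0.66 in stathmin knock-out and -1.26 to -0.45 in wild type. The genes with the smallest p in p27 knock-out against wild type were Arhgdib, Gpnmb and Ly96, which did not follow the members closely (r = -0.40, 0.65 and 0.52). Chosen after its values were seen, Ctss, a cathepsin of antigen-presenting cells, spanned 7.53 on the log2 scale with r = 0.98. Marco, a scavenger receptor that some macrophages carry, did not follow: it read 3.87 on p27 knock-out 2 and -2.50 on double knock-out 3, and between -3.48 and -0.41 on the other 13 arrays. Of 8 tested myeloid transcription factors, only 2 correlated above 0.8 with the members: Irf8 (r = 0.95) and Spi1, which encodes PU.1 (r = 0.88). The lowest r of the list was -0.17, and Cebpb had r = -0.15. Spi1 was at 0.19 on double knock-out 3 and 1.25 on p27 knock-out 2. Of 6 tested growth factors and receptors of macrophages, only 1, the cytokine receptor chain Csf2rb, correlated above 0.8 (r = 0.96). Csf1, the ligand of Csf1r, had r = -0.06.

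In the lists of red cells, T and NK cells, neutrophils, mast cells and platelets, no tested gene correlated above 0.8 with the members. The 4 tested red cell genes, Hba-a1, Epor, Klf1 and Gata1, spanned 0.33 to 0.73 on the log2 scale. Of 10 genes of T and NK cells 4 were tested; Cd3e, Cd3g and Cd4 spanned 0.29 to 0.41 and the kinase Lck 2.17, with r of -0.36 to 0.66 to the members. Of the neutrophil genes, S100a8, which macrophages can also express, spanned 9.24 with r = 0.27, and read 3.74 on p27 knock-out 2 and -3.19 on double knock-out 3. Mpo and Prtn3, granule proteins of neutrophils, spanned 0.41 and 0.67, and Camp spanned 4.47. The 5 mast cell genes had r of -0.11 to 0.33, and the 5 genes of MHC class II and dendritic cells -0.47 to 0.33. Of the 4 endothelial genes, Kdr, Tek, Emcn and Esam, none correlated above 0.8 (highest r = 0.61).

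Fibroblast genes were not ordered like the macrophage genes, with r of -0.39 to 0.31 for the 11 tested. Their mean was -0.10 to 0.30 in double knock-out, 0.34 to 1.35 in p27 knock-out, 0.13 to 1.24 in stathmin knock-out and -0.29 to 0.24 in wild type. The highest fibroblast mean, 1.35, was on p27 knock-out 2, where the proteoglycan Dcn read 5.55 and Lum 5.07. The interferon genes had r of -0.38 to 0.02. Their highest mean, 1.76, was on p27 knock-out 3, the culture lowest in macrophage genes. On p27 knock-out 2, the culture highest in macrophage genes, it was 0.97, and in wild type -1.81 to -1.68. What part fibroblast or interferon gene levels have in the members' values was not tested. Lysosomal genes used by all cells had r of -0.13 to 0.60.

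No gene of these lists was called against wild type in any knock-out genotype. In p27 knock-out against wild type, 10 of 10 interferon genes lay above 0 with a median difference of 1.80, and Psmb9, Tap1 and Bst2 had the smallest p (adjusted p = 0.796 each in limma). All 6 growth factor and receptor genes lay above 0 in that comparison (median 0.37, smallest p for Csf2ra, Csf3 and Csf2rb), as did 7 of 8 transcription factors (median 0.38, smallest p for Spi1, Irf8 and Irf5). Both lists were highest on p27 knock-out 2: the mean of the growth factor list was -0.20, 1.23, -0.32 and -1.15 on the 4 p27 knock-out arrays, against -0.999 to -0.42 in wild type, and that of the transcription factors was 0.87 on p27 knock-out 2, against -0.42 to 0.16 on the other p27 knock-out arrays and -0.31 to -0.16 in wild type. Above 0 were also 9 of 10 lysosomal genes (median 0.50) and 5 of 5 genes of MHC class II and dendritic cells (median 0.24, smallest p for H2-Eb1, Itgax and Flt3). Fibroblast genes were above 0 in 5 of 11 (smallest p for Pdgfrb, Vim and Dcn), mast cell genes in 2 of 5 (Mcpt4, Cma1 and Fcer1a) and platelet genes in 3 of 5 (Itga2b, Ppbp and Treml1). Several lists also lay above 0 in stathmin knock-out against wild type. There it was 10 of 10 interferon genes (median 1.28), 10 of 10 lysosomal (0.63), 6 of 6 growth factor and receptor (0.39) and 5 of 5 MHC class II genes (0.18). Of the transcription factors 2 of 8 did. In double knock-out against wild type it was 10 of 10 interferon, 5 of 5 MHC class II, 7 of 10 lysosomal and 4 of 6 growth factor and receptor genes.

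Second probes mostly followed the brightest probe from array to array, though many spanned less. Of 18 further tested probes, on 16 members, 16 correlated above 0.9 with the brightest probe of their gene. The exceptions were a dim Csf1r probe (r = -0.25, range 0.42 on the log2 scale) and a dim Mpeg1 probe (r = 0.85). The other Cybb probe, well above background on 8 arrays, had r = 0.90.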

How the data were processed

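Spot intensities of 15 Agilent arrays were deposited as scanner output; per the file headers, Feature Extraction 9.1.3.1 made them without background subtraction, and the deposited log10 ratio is dye-normalised red over green. The authors' deposited value table holds log2 ratios whose normalization is not stated in the sources used here; per array it correlated with the ratios computed here at 0.936 to 0.988. In limma 3.58.1 (R 4.3.3), normexp with an offset of 50 corrected the background and loess normalised each array; outlier spots were left out and control spots had weight 0. A probe was tested if well above background in the sample channel on at least 3 arrays of 1 genotype (27700 probes), and the brightest tested probe stood for a gene. All 15 arrays were fitted together (11 residual degrees of freedom). P-values are moderated, two-sided and adjusted by Benjamini-Hochberg over all genes, with 0.05 as the threshold. Precision is limited by how many arrays there are. The fit was tested on simulated data with independent genes and 1 SD per gene in all genotypes. The members move together and their SD differs between genotypes, so that simulation does not cover their case. RefSeq names were found by accession (18206 probes), by current symbol (4017) or by older symbol (1906), and 3571 probes kept the name in the files. Replicate numbers were not used to pair arrays: of 21 pairs with the same number, 12 had residual correlations over 0.1 (range -0.32 to 0.43).

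The members, the 15 gene lists and the alternatives were chosen with earlier results of these data known. Named are all members, genes of short lists, the 3 smallest p (p27 knock-out against wild type) of longer lists and the 12 genes most alike, apart from Ctss, Marco, Csf1, Lum and genes named for their correlation, chosen after their values were seen. A few genes that this rule names are not reported here. Alternatives covered background, normalization, filter, probe, blocks, weights, arrays and source of the values.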

Additional observations from a re-analysis of the deposited data

Results flagged for a closer look

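In groups of 4 arrays, a value was singled out where its gap to the nearest other array took up most of the group's range. Of 99 groups examined (the 32 genes and their mean, in 3 genotypes; the double knock-out with 3 arrays was not examined), 7 held such a value, and chance gives about 1 in 20. Of the 7, 4 were on stathmin knock-out 4: Mrc1 at -2.68 (others -1.58 to -1.39), C1qb at -2.81 (others -1.24 to -1.17), C1qc at -2.99 (others -1.25 to -1.03) and Coro1a at -2.03 (others -1.15 to -0.997). In p27 knock-out, C1qb read -2.89 on culture 3 (others 0.06 to 0.65). In stathmin knock-out, Cybb read -2.61 on culture 1 (others -1.09 to -0.80), and in wild type, Clec4n read -2.41 on culture 1 (others -0.81 to -0.59).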

How the results depend on the processing

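Under 12 alternatives that kept all arrays (11 for the interaction) and with each of 15 arrays left out, 0 of the 32 genes were called in any comparison. Over the 12, the members' median was 0.26 to 1.06 for p27 knock-out against wild type, -0.42 to -0.25 for stathmin knock-out against wild type and 0.73 to 1.22 for double knock-out against wild type. It was -0.19 to 0.96 for double knock-out against p27 knock-out, 0.97 to 1.63 against stathmin knock-out and 0.12 to 1.47 for the interaction. With the slide as a block, double knock-out against p27 knock-out had a median of 0.11 with 24 of 32 genes above 0 (17 signs changed), double knock-out against wild type 1.06 and the interaction 0.45. With a replicate block the medians were 0.91, -0.33 and 0.77 against wild type (p27, stathmin and double knock-out), -0.17 and 1.04 for double knock-out against the p27 and stathmin knock-outs, and 0.22 for the interaction, and no call changed; the shared numbers were not shown to pair cultures. Over all 32 members and the alternatives that kept all arrays, up to 25 signs changed for double knock-out against p27 knock-out. Up to 12 changed for the interaction, 7 for p27 and 6 for stathmin knock-out against wild type. For double knock-out against wild type or stathmin knock-out 0 changed. Single results were followed for the 3 smallest p and the largest and smallest difference of each comparison. Among these the sign changed for 8, none of which passed the test in any setting, and the cause was not tested. With array weights, Mrc1 in p27 knock-out against wild type was -0.58 (-0.042 in the authors' deposited table), double knock-out against p27 knock-out was 0.43 for Cd68, 0.42 for Cybb and 1.25 for Emr1, and the interaction of Emr1 was 0.65. With single arrays left out, Mrc1 in p27 knock-out against wild type ranged from -0.51 to 1.12 and Clec4n in double knock-out against wild type from -0.68 to 1.46. Double knock-out against p27 knock-out ranged from -1.11 to 0.42 for Cd68, -1.36 to 0.69 for Cybb, -2.36 to 0.89 for Emr1 and -0.11 to 1.00 for Cd53. Emr1 ranged from -1.00496 to 2.03 in double knock-out against stathmin knock-out and from -2.92 to 0.32 in the interaction. The sample channel alone and the averaging of wild type 3 and 4 were added after seeing the data. Signal over background limited the dim second probes.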
